A study of Rattus norvegicus with 82 samples.

Results

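Genes that carry out DNA replication and mitosis were followed in cardiomyocytes of the pressure-loaded rat heart. The set was a list of 39 gene symbols, and 35 of them had a row in the deposited table of 17337 genes. The expression of Cenpe, Kif4a, Anln and Ncapg was not analysed here. Birc5, which encodes survivin, did not pass the filter on low counts and was taken as too low to judge (mean raw count 4.74, no read in 6 of 82 libraries). The 34 other members were tested among the 11954 genes that passed this filter. Ube2c passed it although its reads were as few (mean raw count 4.46, no read in 14 libraries). The members fall into 8 roles: the mitotic cyclins with their kinase Cdk1, the spindle checkpoint with the Aurora and Polo kinases, centromere proteins and kinesins, proteins of the spindle and of cytokinesis, chromosome structure, the anaphase-promoting complex, the MCM helicase, and PCNA with the enzymes of nucleotide supply.

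A cell that enters the cycle first licenses its replication origins by loading the MCM helicase, then copies its DNA with the sliding clamp PCNA and deoxynucleotides made by ribonucleotide reductase and thymidylate synthase, and only later builds up cyclin B, Cdk1 and the spindle proteins that separate the chromosomes. Cardiomyocytes of the rat divide before and shortly after birth and then largely leave the cycle, although some copy DNA or divide their nucleus without dividing the cell. Fibroblasts, endothelial cells and macrophages of the heart can still divide in the adult.

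Each of 41 rats gave 1 library of isolated cardiomyocytes per ventricle, right (RV) and left (LV), so that there were 82 libraries in 12 groups. All animals were male or female F1 offspring of female Wistar Kyoto and male Lewis rats. They carried a clip that narrows the pulmonary artery as the animal grows (PAB, which loads the RV), an aortic clip that does the same for the LV (AOB), or neither (Sham, operated without a clip). Stage H is compensated hypertrophy, with an age of 11 weeks in the labels and 7 weeks of treatment, and comprised 7 animals of Sham-H and 6 each of PAB-H and AOB-H. Stage F is heart failure and comprised 9 Sham-F and 7 AOB-F animals of 31 weeks after 26 weeks of treatment and 6 PAB-F animals of 28 weeks after 22 weeks, so that by the labels the Sham-F animals were older than the PAB-F animals they were compared with. The methods of the study give other ages for these groups. PAB and AOB of a stage share the Sham animals, and the RV and LV of a condition come from the same animals. Cells were released with collagenase and enriched by centrifugation, so that cells other than cardiomyocytes were depleted but not sorted out.

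Reads on genes summed to 6675287 to 19665439 per library (median 13074485). Summed over 8 markers of ventricular cardiomyocytes, the libraries held 35955 to 136021 CPM (counts scaled to library size), and 7 endothelial markers summed to 630.2 to 3858 CPM. In no library did 4 neutrophil markers sum to more than 7.31 CPM or 5 lymphocyte markers to more than 5.12 CPM, both reached in LV AOB-F. Of these, Mpo had no read in 79 libraries and Ms4a1 none in 68, whereas Nkg7 had none in 2. At stage F the 2 ventricles differed in the sums of markers: endothelial markers summed to 630.2 to 982 CPM in RV Sham-F and 1455 to 3184 CPM in LV Sham-F, and cardiomyocyte markers to 91766 to 135670.0 and 60309 to 91047 CPM. Not every marker went with its sum. The mean of endothelial Emcn was 18.7 CPM in RV Sham-F and 10.2 CPM in LV Sham-F. Of the cardiomyocyte markers, Myl3 (6657 and 13439 CPM), Tnni3 (2906 and 3661 CPM) and Myl2 (2511 and 2546 CPM) were higher in the LV. The other markers of these lists went with the sums. Single libraries stood apart as well. LV AOB-H replicate 6 held 3858 CPM of endothelial and 1186 CPM of fibroblast markers, against at most 1476 and 523 CPM in the other 5 libraries of the group, and the least cardiomyocyte signal (63474 CPM). It also had the fewest reads of the 82 libraries (6675287), followed by RV PAB-F replicate 1 (9021262) and RV AOB-H replicate 6 (9257139). The part of depth in the values of these libraries was not tested. RV PAB-H replicate 2 and RV PAB-F replicate 1 held the most fibroblast markers of their groups (2624 and 1736 CPM). In such bulk samples, fewer cells of a type and less RNA per cell cannot be told apart.

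The members were weakly expressed, and those of mitosis far less than those of replication. Per gene length, 20 of the 35 members averaged under 1 FPKM (fragments per kilobase of transcript, scaled to library size) over the 82 libraries. Pcna was the highest at 25.3 ± 5.76 FPKM (SD, n = 82), followed by Rrm1, the large subunit of ribonucleotide reductase, at 13.2 ± 5.11 FPKM. The helicase subunit Mcm7 (7.64 ± 1.12 FPKM), Tyms, thymidylate synthase (5.89 ± 2.52 FPKM), and Mcm2 (4.06 ± 1.10 FPKM) came next. Rrm2, the small subunit that limits ribonucleotide reductase in dividing cells, reached only 0.400 ± 0.273 FPKM. Among the mitotic members Nusap1, a microtubule-binding spindle protein, was the highest (2.08 ± 0.853 FPKM), whereas Cenpf, a centromere protein, was the lowest of all (0.129 ± 0.149 FPKM) and Mki67, the common marker of cycling cells, had 0.339 ± 0.313 FPKM. The depth sets what can be seen of them: 5 members had a median raw count under 10, 20 had one from 10 to under 50, and 10 had 50 or more. Ccnb2, Birc5 and Ube2c did not reach a median of 10 in any group, and 22 members did so in all 12.

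**Figure D1:**
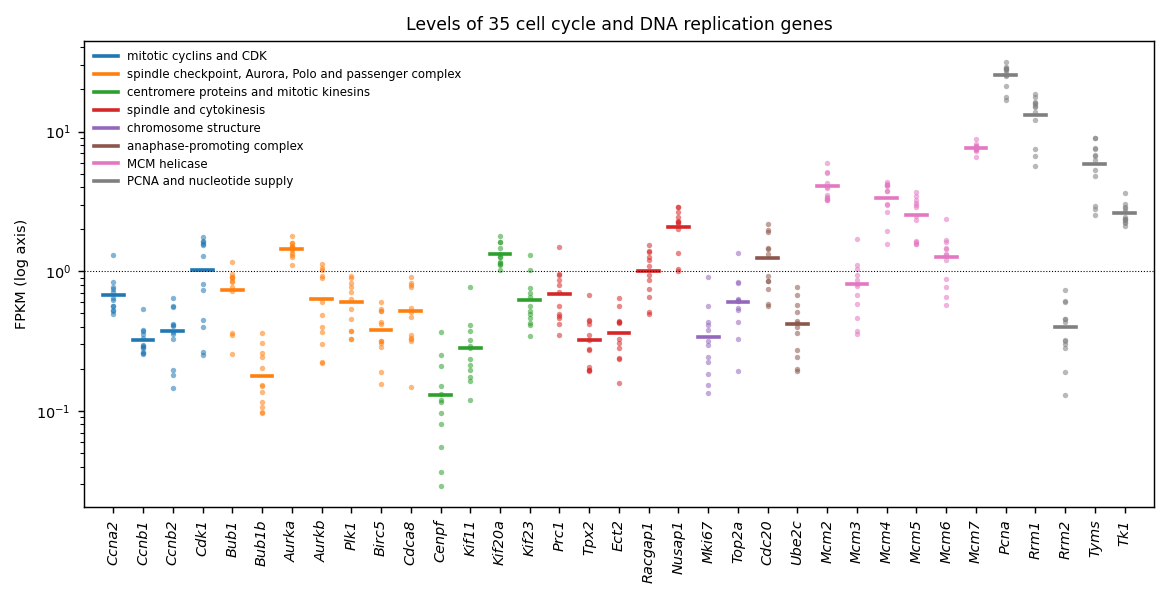
FPKM on a log axis for the 35 members in the table, coloured by role. Points are the means of the 12 groups, horizontal lines the mean over 82 libraries, and the dotted line marks 1 FPKM. Pcna, Rrm1 and Mcm7 lie at the top, and Cenpf and Bub1b at the bottom.

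The promoters of the mitotic members and those of the replication members were read for short motifs. RefSeq (assembly GRCr8, another build than the one the reads were counted on) had a promoter for 32 of the 39 symbols, and the 250 bases before the start were searched on both strands for TTTGAA (a form of the cell cycle genes homology region, CHR), CCAAT, TTCCCGCC and its variant TTTGGCGC (the last 2 are forms of the E2F site). TTTGAA was present in 12 of 23 mitotic promoters (52.2%) and 1 of 9 promoters of replication members (11.1%), against 16% of all 27457 promoters. CCAAT was found in 82.6% and 66.7% of these promoters, against 34.3% of all. TTTGGCGC was found in 3 of the 9 replication promoters, those of Mcm5, Mcm6 and Tyms, in 0 of the 23 mitotic ones and in 0.426% of all, and TTCCCGCC was found in the promoter of 1 member, Rrm1, and 1.65% of all. A match is a string of letters and not a bound site. The 120 bases before the start are shown, 5′ to 3′ on the strand of the gene, for 4 mitotic members and 2 of replication whose values are described later, with every searched motif in capitals. In Mki67 the second TTTGAA shares its last letter with ATTGG, the reverse of CCAAT.
Cdk1, chr20:19265173-19265292, plus strand: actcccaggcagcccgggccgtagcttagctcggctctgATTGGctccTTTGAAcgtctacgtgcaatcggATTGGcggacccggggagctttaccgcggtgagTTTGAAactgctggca
Mki67, chr1:199952594-199952713, minus strand: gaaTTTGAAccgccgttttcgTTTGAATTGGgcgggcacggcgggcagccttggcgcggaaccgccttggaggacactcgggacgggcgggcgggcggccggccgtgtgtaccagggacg
Kif23, chr8:71320585-71320704, minus strand: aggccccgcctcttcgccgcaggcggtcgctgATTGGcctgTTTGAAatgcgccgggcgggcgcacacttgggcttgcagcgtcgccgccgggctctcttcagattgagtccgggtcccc
Cdc20, chr5:137255800-137255919, minus strand: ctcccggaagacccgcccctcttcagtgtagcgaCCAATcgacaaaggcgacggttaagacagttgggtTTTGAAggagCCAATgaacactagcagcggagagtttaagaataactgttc
Mcm6, chr13:42404353-42404472, minus strand: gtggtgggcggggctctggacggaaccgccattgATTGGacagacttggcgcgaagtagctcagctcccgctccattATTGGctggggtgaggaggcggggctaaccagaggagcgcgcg
Tyms, chr9:120776084-120776203, minus strand: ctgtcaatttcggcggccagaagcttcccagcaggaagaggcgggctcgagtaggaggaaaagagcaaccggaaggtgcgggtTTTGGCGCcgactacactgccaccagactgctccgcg
Cdk1 has TTTGAA at 72 and 16 bases before its start, Kif23 at 79 and Cdc20 at 51, each counted to the first base of the motif, and each with CCAAT or its reverse within the stretch shown. Mcm6 and Tyms have no TTTGAA there, and the TTTGGCGC of Tyms begins 37 bases before the start.

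Across the 12 groups, 6 members were followed in every library as normalized counts (raw counts scaled to the same library size). The mean of Mki67 was lowest in RV Sham-F (18.02 ± 6.56 SD, n = 9) and highest in LV AOB-H (122 ± 81.5 SD, n = 6). Top2a, the topoisomerase that untangles chromosomes, was likewise highest in LV AOB-H (91.6 ± 68.03 SD, n = 6) and lowest in LV PAB-F (12.7 ± 7.40 SD, n = 6). Both high means rest in part on LV AOB-H replicate 6, in which Mki67 reached 279 and Top2a 221. Ccnb1, cyclin B1, ranged only from 11.3 ± 3.14 (SD, n = 9) to 23.8 ± 14.3 (SD, n = 6) and passed the test in 0 of the 20 comparisons. Cdk1, the kinase that cyclin B1 activates, followed the ventricle: its group means were 4.001 ± 2.41 to 13.2 ± 7.08 in the 6 RV groups and 20.4 ± 9.54 to 28.1 ± 12.3 in the 6 LV groups. Mcm2, a subunit of the replicative helicase, lay between 142 ± 17.8 and 156 ± 17.1 in the RV groups and between 175 ± 43.2 and 258 ± 38.5 in the LV groups. Pcna had group means in the RV from 412 ± 39.96 to 496 ± 63.1, and its lowest means were those of the LV groups of stage F, at 262 ± 41.6 to 330.2 ± 87.3.

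**Figure D2:**
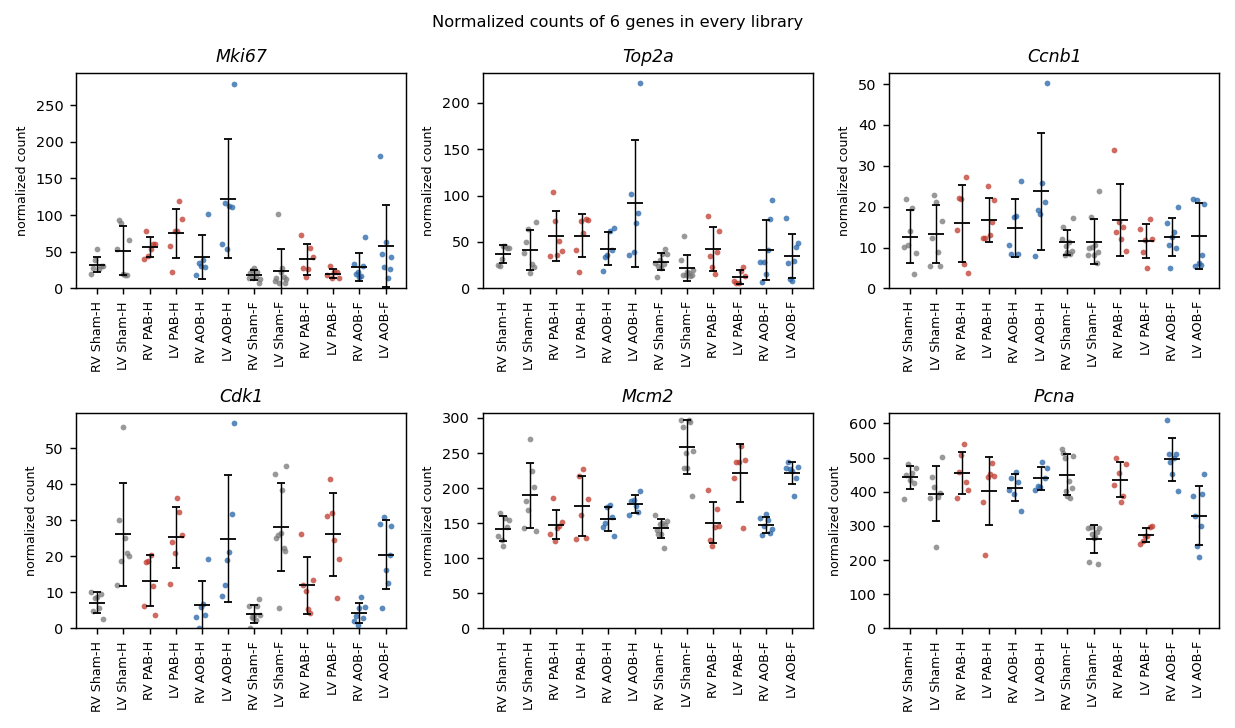
Normalized counts (linear axis) of Mki67, Top2a, Ccnb1, Cdk1, Mcm2 and Pcna in 12 groups of 6 to 9 libraries. Points are libraries (grey Sham, red PAB, blue AOB), and bars show mean ± SD. One library of LV AOB-H lies far above its group for Mki67 and Top2a, and the mean of Cdk1 is lower in each RV group than in the LV group of the same condition.

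The first question was whether pressure load changed these genes in the ventricle that carries it. In the hypertrophied RV, PAB-H compared with Sham-H, 3 of 34 members rose and 0 fell at an adjusted p under 0.05 (edgeR, quasi-likelihood), against 4.5% of all genes tested (3.91% higher and 0.594% lower). These were the helicase subunits Mcm6 and Mcm3 and Kif23, a kinesin of the midzone of the spindle and of cytokinesis. Mcm6 had a median of 50.8 (33.2 to 115) normalized counts in PAB-H and a median of 25.02 (15.1 to 39.1) in Sham-H. This was a 2.25-fold increase (log2 fold change 1.17 ± 0.31 SE, adjusted p = 0.0196), with 2 of the 6 PAB-H libraries inside the range of Sham-H. Mcm3 had a median of 28.3 (13.7 to 52.9) in PAB-H and a median of 14.7 (5.997 to 27.2) in Sham-H (log2 fold change 1.16 ± 0.36 SE, adjusted p = 0.048). In 3 of the 6 PAB-H libraries Mcm3 lay within the range of Sham-H. Kif23 had a median of 48.3 (21.6 to 66.2) in PAB-H and a median of 23.5 (6.76 to 31.5) in Sham-H (log2 fold change 1.07 ± 0.32 SE, adjusted p = 0.0358). Over all members the log2 fold change had a median of 0.37, with 27 above 0 and 7 below, and over all genes it had a median of 0.00. Tyms was named after its values were seen, as the member whose libraries did not overlap: it had 123 to 169 in PAB-H and 178 to 205.0 in Sham-H (log2 fold change -0.40 ± 0.18 SE, adjusted p = 0.192), and 3.24% of all genes did not overlap in this comparison.

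With no filter on low counts 1 member passed in RV PAB-H, and with a fit to these 2 groups alone 6 did. The share of all genes called under these settings is not given here, so these counts are no result about the members. The calls also depended on single libraries. With each of the 13 libraries left out in turn, Mcm6 passed 12 times, Kif23 7 and Mcm3 4. Without RV PAB-H replicate 2, which had the highest Mcm6 of its group (115) and the most fibroblast markers, 0 members passed, and the log2 fold change of Mcm6 was 0.85 (adjusted p = 0.297). The count was 1 without RV PAB-H replicate 4 or RV Sham-H replicates 1, 5 or 6, and 5 without RV PAB-H replicate 5. Of 8 tested fibroblast markers 8 rose in this comparison, of 7 endothelial 1 and of 8 macrophage 0. Fibroblast markers summed to 372 to 2624 CPM against 239.7 to 465.5 CPM in RV Sham-H, endothelial markers to 843 to 1718 against 709.9 to 1039.6 CPM and macrophage markers to 36.2 to 155 against 29.8 to 62.3 CPM. Their part in the result was not tested.

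In the failing RV, PAB-F compared with Sham-F, 6 of 34 members passed, against 11.1% of all genes (7.66% higher and 3.42% lower). The helicase subunits Mcm6, Mcm5 and Mcm3 and the kinase Cdk1 rose, and Racgap1 and Tyms fell. Mcm6 had a median of 51.7 (23.6 to 91.2) normalized counts in PAB-F and a median of 20.8 (11.1 to 41.7) in Sham-F (log2 fold change 1.18 ± 0.29 SE, adjusted p = 0.00454). In 4 of the 6 PAB-F libraries Mcm6 lay above every Sham-F library. Mcm5 had a median of 86.3 (50.5 to 114) in PAB-F and a median of 58.7 (34.5 to 65.05) in Sham-F (log2 fold change 0.65 ± 0.18 SE, adjusted p = 0.0126), with 1 PAB-F library inside the range of Sham-F. Mcm3 and Cdk1, which also passed, were named after their values were seen. The libraries of Mcm3 did not overlap, with a median of 28.5 (25.3 to 67.7) in PAB-F and a median of 17.1 (8.01 to 21.2) in Sham-F (log2 fold change 1.21 ± 0.34 SE, adjusted p = 0.0131), in a comparison in which 2.71% of all genes did not overlap. The other helicase subunits did not pass, at a log2 fold change of 0.08 ± 0.12 (SE, adjusted p = 0.713) for Mcm2, 0.05 ± 0.21 (SE, adjusted p = 0.9) for Mcm4 and 0.04 ± 0.11 (SE, adjusted p = 0.835) for Mcm7. Cdk1 rose from low counts, with a median of 11.2 (4.21 to 26.05) in PAB-F and a median of 3.71 (0 to 8.05) in Sham-F (log2 fold change 1.52 ± 0.49 SE, adjusted p = 0.0322), and 2 of the 6 PAB-F libraries lay within the range of Sham-F.

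Racgap1, a GTPase-activating protein of the cytokinetic midzone that also has roles outside division, fell by more than any other tested member in this comparison. It had a median of 14.8 (6.41 to 29.5) in PAB-F and a median of 37.9 (19.1 to 63.1) in Sham-F (log2 fold change -1.23 ± 0.30 SE, adjusted p = 0.00344), and 4 of the 6 PAB-F libraries lay below every Sham-F library. Its partners in cytokinesis had higher means in PAB-F, at log2 fold changes of 0.53 ± 0.37 (SE, adjusted p = 0.365) for the exchange factor Ect2 and 0.69 ± 0.31 (SE, adjusted p = 0.133) for Kif23. Tyms had a median of 100.4 (77.5 to 135) in PAB-F and a median of 149.9 (126 to 201) in Sham-F (log2 fold change -0.64 ± 0.18 SE, adjusted p = 0.0115), and 1 PAB-F library lay inside the range of Sham-F. The other members of nucleotide supply had log2 fold changes of -0.09 ± 0.20 (SE, adjusted p = 0.797) for Rrm1, 1.28 ± 0.47 (SE, adjusted p = 0.0614) for Rrm2 and -0.01 ± 0.19 (SE, adjusted p = 0.978) for thymidine kinase Tk1. Over all members the median log2 fold change was 0.54, with 28 above 0 and 6 below. The median over all genes was 0.02.

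RV PAB-F replicate 1 had the highest value of its group for 19 of the 35 members, among them Mcm3 (67.7), Mcm6 (91.2) and Cdk1 (26.05), and it also held the most fibroblast, endothelial and macrophage markers of the group (1736, 1649 and 151 CPM). Without it 3 members passed, namely Mcm5, Racgap1 and Tyms, which also passed without any other single library. Cdk1 passed in 10 of the 15 fits that left out 1 library, and was also lost without RV PAB-F replicate 2 or RV Sham-F replicates 2, 4 or 6. Without RV PAB-F replicate 1, Mcm3 had a log2 fold change of 0.91 (adjusted p = 0.155), Mcm6 of 0.95 (adjusted p = 0.0667) and Cdk1 of 1.16 (adjusted p = 0.227). Of 8 fibroblast markers 4 rose in RV PAB-F, of 7 endothelial 1, of 6 mural 2 and of 8 macrophage 3. Fibroblast markers summed to 262 to 1736 CPM in RV PAB-F and 159.5 to 502 CPM in RV Sham-F, endothelial markers to 816 to 1649 and 630.2 to 982 CPM, and cardiomyocyte markers to 49441 to 107840.0 and 91766 to 135670.0 CPM. Their part in the result was not tested.

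**Figure D3:**
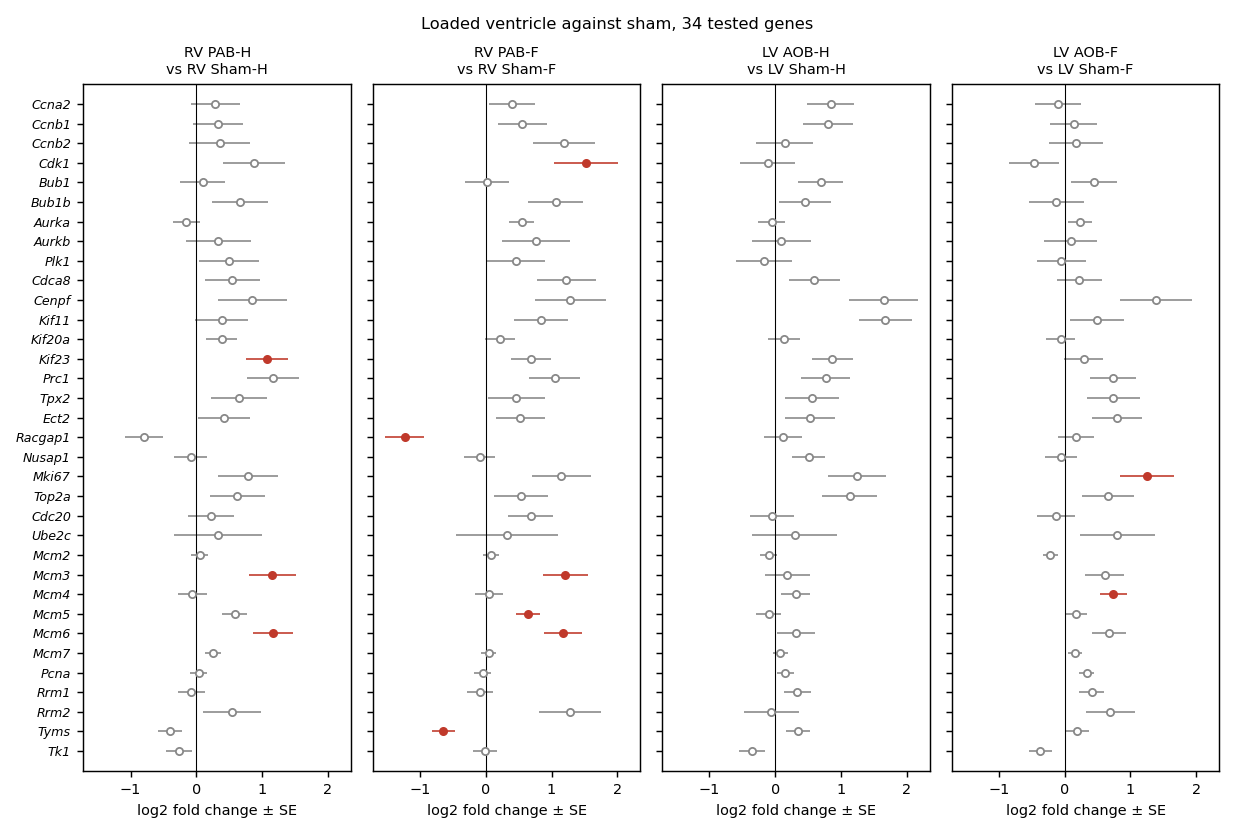
Log2 fold change ± SE of the 34 tested members in the loaded ventricle against its sham, at stages H and F. Filled red points passed an adjusted p under 0.05. The 3 members that passed in RV PAB-H lie above 0, those in RV PAB-F on both sides, none passed in LV AOB-H, and Mcm4 and Mki67 passed in LV AOB-F.

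In the hypertrophied LV, AOB-H compared with Sham-H, 0 of 34 members passed in edgeR, although 26 lay above 0 and the median log2 fold change was 0.31. DESeq2 called 1 member, Kif11, and only 0.0167% of all genes passed in edgeR. Kif11, the kinesin that pushes the spindle poles apart, had a median of 37.8 (17.8 to 127) normalized counts in AOB-H and a median of 12.3 (7.90 to 31.2) in Sham-H (log2 fold change 1.67 ± 0.40 SE, adjusted p = 0.0912). Cenpf had a median of 38.1 (16.9 to 138) in AOB-H and a median of 10.99 (5.92 to 33.8) in Sham-H (log2 fold change 1.65 ± 0.52 SE, adjusted p = 0.106). Mki67 had a median of 112 (54.4 to 279) in AOB-H and a median of 54.3 (18.5 to 93.9) in Sham-H (log2 fold change 1.24 ± 0.44 SE, adjusted p = 0.128). In all 3 genes the highest value was that of LV AOB-H replicate 6, which had the highest value of its group for 28 of the 35 members. Summed over the 24 mitotic members it held 157 CPM, against 44.9 to 77.99 CPM in the other 5 AOB-H libraries and 42.2 to 60.1 CPM in LV Sham-H. Without this library the log2 fold change was 1.15 (adjusted p = 0.327) for Kif11, 1.05 (adjusted p = 0.357) for Cenpf and 0.83 (adjusted p = 0.38) for Mki67. The RV library of the same animal, RV AOB-H replicate 6, was likewise the highest of its group for Mki67 (102, others at most 38.9) and for endothelial markers (2330.4 CPM, others at most 867 CPM). The part of these other cells in the values was not tested.

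In the failing LV, AOB-F compared with Sham-F, 2 of 34 members rose and 0 fell, against 12.9% of all genes (8.54% higher and 4.35% lower). Mcm4, a subunit of the catalytic core of the helicase, had a median of 132 (52.3 to 176) normalized counts in AOB-F and a median of 73.4 (21.9 to 105) in Sham-F (log2 fold change 0.74 ± 0.20 SE, adjusted p = 0.0104). In Mcm4, 4 of the 7 AOB-F libraries lay above every Sham-F library. Mki67 had a median of 42.4 (14.6 to 181) in AOB-F and a median of 14.2 (7.45 to 101) in Sham-F (log2 fold change 1.25 ± 0.41 SE, adjusted p = 0.0344). Both groups had 1 library far above the rest for Mki67, LV AOB-F replicate 1 (181) and LV Sham-F replicate 3 (101), and 1 AOB-F library lay above every Sham-F library. Without the former the log2 fold change of Mki67 was 0.64 (adjusted p = 0.353), and without the latter it was 1.97 (adjusted p = 0.000363). The number of members that passed ranged from 0 without LV AOB-F replicate 7 to 8 without LV Sham-F replicate 3, and it was 6 without LV AOB-F replicate 3 and 4 without LV AOB-F replicate 4. It was 1 without any of LV AOB-F replicate 1 or LV Sham-F replicates 1, 2, 4, 7, 8 and 9. When the number of the replicate was taken as a block, or when only the 2 groups were fitted, 0 members passed. Over all members the median log2 fold change was 0.23, with 25 above 0. Of 8 macrophage markers 3 rose in this comparison, of 7 endothelial 2 and of 8 fibroblast 1. Macrophage markers summed to 43.2 to 269 CPM in LV AOB-F and 41.7 to 166 CPM in LV Sham-F, neutrophil markers to 0.0731 to 7.31 and 0.0738 to 0.911 CPM, and cardiomyocyte markers to 35955 to 76842 and 60309 to 91047 CPM. Their part in the result was not tested.

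**Figure D4:**
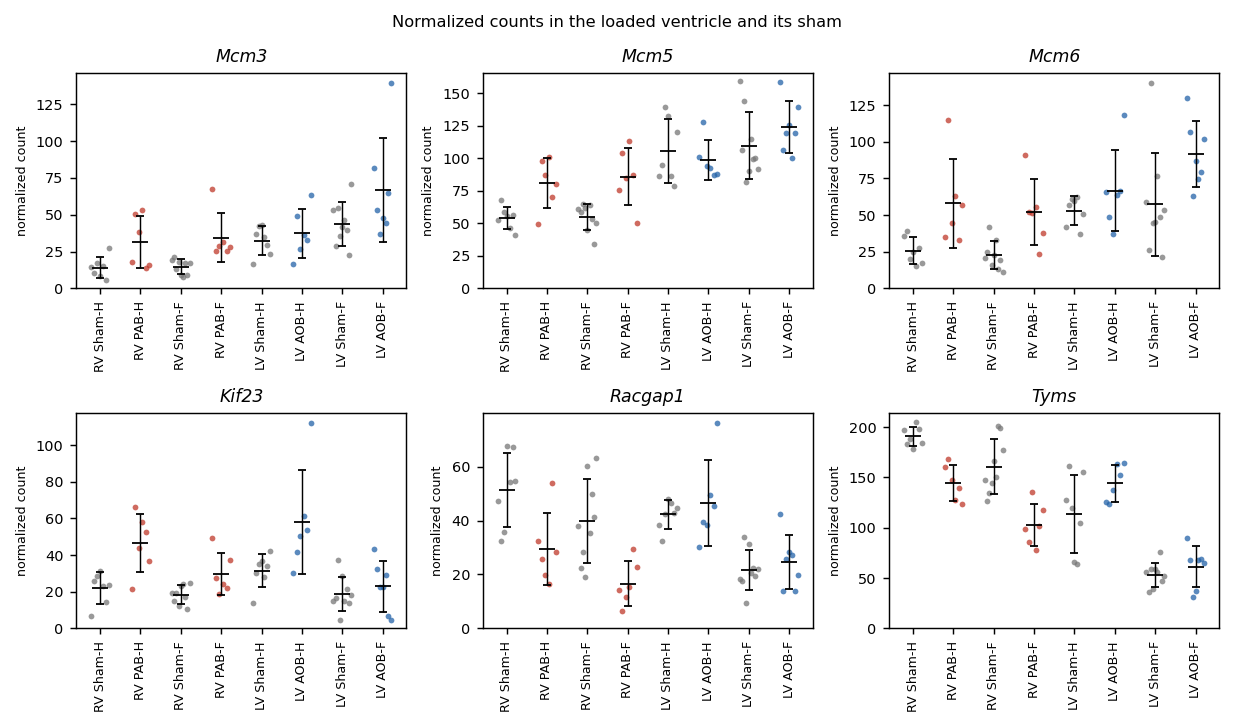
Normalized counts (linear axis) of Mcm3, Mcm5, Mcm6, Kif23, Racgap1 and Tyms in the RV of Sham and PAB and the LV of Sham and AOB, at stages H and F. Points are libraries (grey Sham, red PAB, blue AOB), and bars show mean ± SD for 6 to 9 libraries. The means of the helicase subunits are higher and those of Racgap1 and Tyms lower in RV PAB-F than in RV Sham-F.

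In the ventricle opposite to the one the clip loads, 0 of 34 members passed in any of the 4 comparisons, in edgeR or in DESeq2. Few other genes passed either, at 0%, 0%, 0% and 0.0669% of all tested in LV PAB-H, RV AOB-H, LV PAB-F and RV AOB-F. The smallest p in LV PAB-H belonged to Cenpf, with a median of 34.5 (14.4 to 51.9) normalized counts against a median of 10.99 (5.92 to 33.8) in LV Sham-H (log2 fold change 1.12 ± 0.52 SE, adjusted p = 0.991), and the next to Kif11 (log2 fold change 0.66 ± 0.41 SE, adjusted p = 0.991). In RV AOB-H it belonged to Mcm7 (log2 fold change 0.20 ± 0.12 SE, adjusted p = 1) and then to Ccnb2 (log2 fold change -0.71 ± 0.52 SE, adjusted p = 1), cyclin B2, which is thinly counted. In LV PAB-F it belonged to Mcm2 (log2 fold change -0.22 ± 0.12 SE, adjusted p = 1) and Top2a (log2 fold change -0.80 ± 0.45 SE, adjusted p = 1), and in RV AOB-F to Rrm2 (log2 fold change 1.12 ± 0.46 SE, adjusted p = 0.894) and Cdca8 (log2 fold change 1.08 ± 0.44 SE, adjusted p = 0.894), a member of the passenger complex. Both of the latter had a median under 10 raw counts in both groups. The 95% interval of Rrm2, not adjusted for the number of genes, in RV AOB-F ran from 0.23 to 2.02.

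Whether the loaded ventricle responded differently from the other ventricle of the same animals was tested directly as a difference of 2 log2 fold changes. It passed for 0 members for PAB-H, 0 for PAB-F and 0 for AOB-F in edgeR and in DESeq2, and for 0%, 0.351% and 0% of all genes in edgeR. For AOB-H this difference was not tested. For PAB-H the smallest p belonged to Mcm6, whose log2 fold change was higher in the RV than in the LV by 1.32 ± 0.43 (SE, adjusted p = 0.398), and then to Mcm3 (difference 1.42 ± 0.50 SE, adjusted p = 0.422). For PAB-F it belonged to Tyms (difference -0.77 ± 0.25 SE, adjusted p = 0.183) and Rrm2 (difference 1.79 ± 0.63 SE, adjusted p = 0.211). With the animal as a block 1 member passed for PAB-F, Mcm3, at 1.30 (adjusted p = 0.016). For AOB-F, LV minus RV, it belonged to Mcm4 (difference 0.69 ± 0.28 SE, adjusted p = 0.474) and Ect2 (difference 1.13 ± 0.54 SE, adjusted p = 0.486). The calls in the loaded ventricle are thus not shown to be particular to it. The call of Mcm3 in the blocked fit was not followed with single libraries left out. Its rise in RV PAB-F over RV Sham-F did not pass without RV PAB-F replicate 1 (log2 fold change 0.91, adjusted p = 0.155).

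The 2 ventricles differed already without banding. In young shams (RV Sham-H against LV Sham-H) 9 of 34 members passed, 21% of all genes doing so (9.62% higher and 11.4% lower), with 1 member higher and 8 lower in the RV. The lower members were the helicase subunits Mcm5, Mcm6, Mcm3 and Mcm2, the kinases Cdk1 and Aurkb, the activator of the anaphase-promoting complex Cdc20 and the spindle protein Prc1, and the higher one was Tyms. Mcm5 had a median of 55.5 (40.9 to 67.7) normalized counts in the RV and a median of 95.03 (79.2 to 139) in the LV (log2 fold change -0.96 ± 0.18 SE, adjusted p = 0.000187), without overlap. Tyms had a median of 188 (178 to 205.0) in the RV and a median of 119.5 (64.4 to 161) in the LV (log2 fold change 0.75 ± 0.18 SE, adjusted p = 0.00212). Cdk1 had a median of 8.55 (2.48 to 10.1) in the RV and a median of 20.9 (12.2 to 55.97) in the LV (log2 fold change -1.86 ± 0.45 SE, adjusted p = 0.00253). Neither had an overlapping library. In total 3 members did not overlap, where 4.59% of all genes did not. Mcm6 had a median of 25.02 (15.1 to 39.1) in the RV and a median of 57.02 (37.4 to 62.1) in the LV (log2 fold change -1.04 ± 0.30 SE, adjusted p = 0.00992). Without LV Sham-H replicate 4, which had the highest Cdk1 of its group (55.97) and the most endothelial markers (2371 CPM), 4 members passed. With each of the 14 libraries left out in turn, Aurkb passed 5 times, Prc1 4 and Cdc20 11, and the other called members 13 or 14 times. Of 7 endothelial markers 4 and of 6 mural markers 4 were lower in the RV. Endothelial markers summed to 709.9 to 1039.6 CPM in the RV and 1008 to 2371 CPM in the LV, and their part in the result was not tested.

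In the AOB-H animals 11 of 34 members passed, all lower in the RV than in the loaded LV, against 7.98% of all genes (1.57% higher and 6.41% lower). Beside Mcm5, Cdk1, Mcm6, Prc1 and Aurkb these were Kif23, Kif11, Mki67, the small reductase subunit Rrm2 and the cyclins Ccna2 and Ccnb2. Mcm5 had a median of 56.8 (26.2 to 71.9) in the RV and a median of 93.7 (87.5 to 128) in the LV (log2 fold change -0.86 ± 0.20 SE, adjusted p = 0.00241), without overlap. It and Ccnb2 were the 2 members that did not overlap, and 3.71% of all genes did not. Ccnb2 is thinly counted here, with a median under 10 raw counts in both groups. It passed in 7 of the 12 fits that left out 1 library. Cdk1 had a median of 4.76 (0 to 19.3) in the RV and a median of 20.1 (8.88 to 56.8) in the LV (log2 fold change -1.95 ± 0.50 SE, adjusted p = 0.00633), with the highest RV library, RV AOB-H replicate 6, inside the LV range. Kif23 had a median of 26.00 (16.3 to 33.1) in the RV and a median of 52.2 (30.2 to 112) in the LV (log2 fold change -1.19 ± 0.33 SE, adjusted p = 0.0129), and the log2 fold change of Mcm6 was -1.11 ± 0.32 (SE, adjusted p = 0.0169). Over all members 29 of 34 lay below 0, with a median of -0.93 against 0.02 for all genes. Without LV AOB-H replicate 6, 1 member passed, Mcm5, and the count was 3, 7, 4 and 7 without RV AOB-H replicates 1, 2, 3 and 5. With a fit to these 2 groups alone it was 2. Of 7 endothelial markers 6 were lower in the RV, summing to 679 to 2330.4 CPM there and 1196 to 3858 CPM in the LV, and their part in the result was not tested. In the PAB-H animals, in which the RV carries the load, 0 members passed in edgeR and in DESeq2, and 0.125% of all genes passed. The smallest p belonged to Mcm4 (log2 fold change 0.49 ± 0.23 SE, adjusted p = 0.422) and Cdk1 (log2 fold change -0.92 ± 0.45 SE, adjusted p = 0.447). Whether the ventricle effect in AOB-H differed from that in Sham-H or PAB-H was not tested.

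At stage F most of the transcriptome differed between the ventricles, and the members did so no more often. In Sham-F 21 of 34 members passed (8 higher and 13 lower in the RV) where 74.3% of all genes did (35.6% higher and 38.6% lower), in PAB-F 17 (11 higher, 6 lower) where 61.1% did (32.1% higher and 29% lower), and in AOB-F 18 (6 higher, 12 lower) where 67.1% did (32% higher and 35.1% lower), so that these counts are no result about the members. What can be described is their split. In all 3 conditions, which share no library, Tyms, Rrm1, Pcna, Mcm4, Nusap1 and the checkpoint kinase Bub1 were higher in the RV, and Mcm2, Mcm5, Cdk1, Cdc20, Aurkb and Cdca8 were lower. With each of the 12 PAB-F libraries left out in turn, Mcm5 passed 5 times, Aurkb 7 and Cdk1 9. The others named passed all 12 times, and in Sham-F and AOB-F all of them passed without any single library. No member was called in opposite directions, and 8 were called in none, among them Mki67 and the cyclins Ccna2 and Ccnb1. The share of all genes called the same way in all 3 conditions was not counted. The number of members that kept their side is therefore no result about them either. In Sham-F, Tyms had a median of 149.9 (126 to 201) normalized counts in the RV and a median of 56.04 (36.2 to 75.5) in the LV (log2 fold change 1.59 ± 0.16 SE, adjusted p = 1.1e-13). Rrm1 had a median of 738 (573 to 804) in the RV and a median of 209.8 (184 to 349) in the LV (log2 fold change 1.66 ± 0.18 SE, adjusted p = 7.75e-13). Neither gene had an overlapping library. Mcm2 had a median of 147 (115 to 161) in the RV and a median of 253 (188 to 298) in the LV (log2 fold change -0.86 ± 0.11 SE, adjusted p = 1.17e-10), whereas Mcm4, another subunit of the same helicase ring, had a median of 178 (156 to 207) in the RV and a median of 73.4 (21.9 to 105) in the LV (log2 fold change 1.37 ± 0.19 SE, adjusted p = 2.16e-09). Subunits of 1 complex thus lay on opposite sides, both without overlap. The libraries of 11 members did not overlap in Sham-F, of 4 in PAB-F and of 6 in AOB-F, where 41.8%, 23.2% and 30.3% of all genes did not.

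In PAB-F the log2 fold change of RV over LV was 1.34 ± 0.22 (SE, adjusted p = 5.93e-07) for Rrm1, 1.14 ± 0.23 (SE, adjusted p = 2.2e-05) for Mcm4, 0.67 ± 0.14 (SE, adjusted p = 3.09e-05) for Pcna and -0.56 ± 0.13 (SE, adjusted p = 0.000223) for Mcm2. In AOB-F it was 1.39 ± 0.18 (SE, adjusted p = 1.12e-09) for Tyms, 1.33 ± 0.20 (SE, adjusted p = 4.8e-08) for Rrm1, -1.14 ± 0.18 (SE, adjusted p = 1.91e-07) for Mcm5 and -1.78 ± 0.34 (SE, adjusted p = 4.05e-06) for Cdc20. Top2a, Cenpf, Kif23 and Bub1b were called higher in the RV of PAB-F and not in the other conditions of stage F. With each of the 12 PAB-F libraries left out in turn, Bub1b passed 6 times, Kif23 11 and Top2a and Cenpf 12. The difference of the ventricle effect between PAB-F and Sham-F, which is the difference in response given for PAB-F, passed for 0 of these members. Endothelial markers summed to 816 to 1649 CPM in the RV and 1454 to 2862 CPM in the LV of PAB-F, and to 735 to 1063 and 1466 to 3813 CPM in AOB-F. Mural cell markers summed to 299.7 to 473 CPM in RV Sham-F and 654 to 1461 CPM in LV Sham-F. The part of these cells in the split was not tested.

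Age was compared within the shams. In the RV 0 of 34 members passed between Sham-F and Sham-H in edgeR and in DESeq2, 26 had a log2 fold change below 0, and 0.0502% of all genes passed. The smallest p belonged to Rrm2 (log2 fold change -1.23 ± 0.45 SE, adjusted p = 0.636) and Cdca8 (log2 fold change -1.11 ± 0.44 SE, adjusted p = 0.741). In the LV 18 members passed, 17 lower and 1 higher with age, where 57.4% of all genes passed (27.8% higher and 29.6% lower), a share close to that of the members. The members that fell span replication and mitosis. Tyms had a median of 56.04 (36.2 to 75.5) normalized counts in Sham-F and a median of 119.5 (64.4 to 161) in Sham-H (log2 fold change -1.09 ± 0.17 SE, adjusted p = 8.16e-07). Rrm1 had a median of 209.8 (184 to 349) in Sham-F and a median of 604 (141 to 726) in Sham-H (log2 fold change -1.11 ± 0.19 SE, adjusted p = 2.35e-06). In Tyms 2 of the 7 Sham-H libraries and in Rrm1 1 lay inside the range of Sham-F, and 1 further Sham-H library lay below every Sham-F library in Rrm1. Pcna (log2 fold change -0.59 ± 0.12 SE, adjusted p = 4.05e-05) and Mcm4 (log2 fold change -0.96 ± 0.20 SE, adjusted p = 5.76e-05) followed. Among the mitotic members that fell were Bub1, Nusap1, Ect2, Racgap1, Cenpf, Tpx2, Bub1b, Mki67, Kif23, Prc1, Kif11, Kif20a and Top2a, with log2 fold changes from -1.68 for Cenpf to -0.51 for Kif20a. With each of the 16 libraries left out in turn, Top2a passed only 5 times, Kif11 and Kif20a 8 times each and Prc1 12 times. Mki67 and Kif23 passed 14 times each, and the other mitotic members named passed all 16 times. Mcm2 rose (log2 fold change 0.44 ± 0.12 SE, adjusted p = 0.000854). Endothelial markers summed to 1008 to 2371 CPM in LV Sham-H and 1455 to 3184 CPM in LV Sham-F, cardiomyocyte markers to 68076 to 120284 and 60309 to 91047 CPM, and their part in the result was not tested.

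The difference of the age effect between LV and RV was tested in the same fit. It passed for 9 members, 2 above 0 and 7 below, and for 41.6% of all genes (18.6% higher and 23% lower). The change of Rrm1 with age was lower in the LV than in the RV, with a difference of -1.26 ± 0.27 (SE, adjusted p = 0.000466) on the log2 scale, and so was that of Nusap1 (difference -1.23 ± 0.33 SE, adjusted p = 0.00263), Pcna (difference -0.61 ± 0.17 SE, adjusted p = 0.00361) and Tyms (difference -0.84 ± 0.24 SE, adjusted p = 0.00405). Bub1, Mcm4 and Ect2 also had a difference below 0, and Cdca8 and Mcm2 one above 0. In the RV itself Rrm1 had a median of 738 (573 to 804) normalized counts in Sham-F and a median of 662 (585 to 740.2) in Sham-H, and Pcna had a median of 431 (381 to 527) in Sham-F and a median of 450.0 (379 to 482) in Sham-H. The RV ranges overlapped in both genes.

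**Figure D5:**
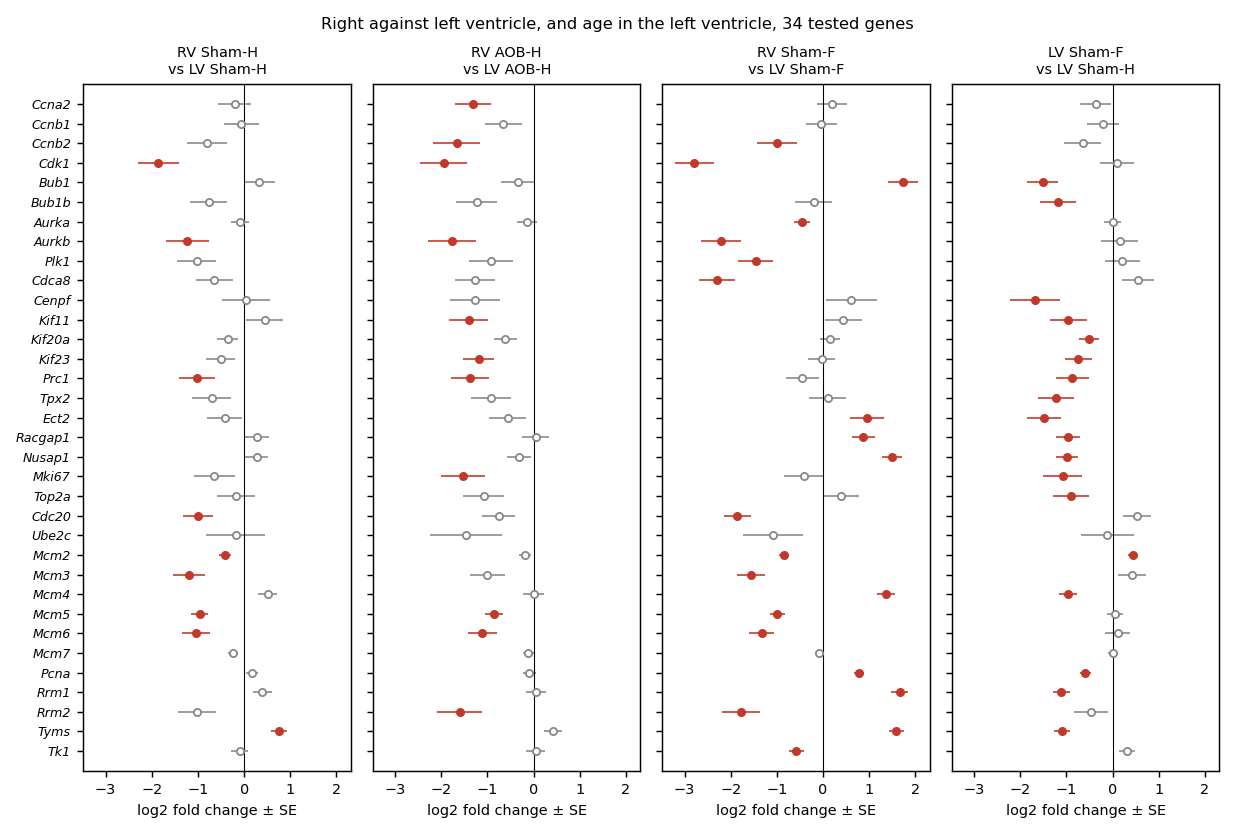
Log2 fold change ± SE of the 34 tested members for RV against LV in Sham-H, AOB-H and Sham-F, and for Sham-F against Sham-H in the LV. Filled red points passed an adjusted p under 0.05. All 11 members called in AOB-H lie below 0, whereas Sham-F has members on both sides.

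Genes that act before and around the members were taken from 7 further lists. They were not followed under the alternatives or with single libraries left out, and the part of other cells in their values was not tested. In RV PAB-H the CDK inhibitor Cdkn1c rose (log2 fold change 0.98 ± 0.31 SE, adjusted p = 0.049) and 0 other genes of these lists passed, where 4.5% of all genes did. In RV PAB-F, of 8 G1 cyclins and kinases 3 rose (Ccnd2, Ccnd1 and Cdk6) and 0 fell, where 7.66% of all genes rose and 3.42% fell. Of all the lists Ccnd2, E2f1 and Pole had the smallest p, and the others are named after their values were seen. Ccnd2, cyclin D2, had 3974 ± 1169 normalized counts (SD, n = 6) in PAB-F and 2245 ± 95.7 (SD, n = 9) in Sham-F (log2 fold change 0.82 ± 0.16 SE, adjusted p = 0.000189). E2f1, a transcription factor that drives replication genes, was the gene that rose among 10 tested of the RB and E2F list, with 26.3 ± 14.9 in PAB-F and 8.13 ± 3.39 in Sham-F and no overlapping library (log2 fold change 1.65 ± 0.34 SE, adjusted p = 0.000595). The polymerase subunit Pole (log2 fold change 0.61 ± 0.17 SE, adjusted p = 0.015) and Rpa2 rose among 14 genes of the replication fork, and Orc6 fell among 17 of origin licensing and firing. Of 5 CDK inhibitors, 5 genes of the MuvB complex with Mybl2 and Foxm1, and 16 other mitotic genes 0 passed. In LV AOB-F, where 8.54% of all genes rose and 4.35% fell, 0 of the 8 G1 cyclins and kinases passed, and Lin54 (log2 fold change 0.55 ± 0.14 SE, adjusted p = 0.00635), Prim1 (log2 fold change 0.76 ± 0.23 SE, adjusted p = 0.0186) and Smc2 rose while Cdc25b (log2 fold change -0.47 ± 0.14 SE, adjusted p = 0.0171) and Fzr1 fell. In LV AOB-H 0 genes of the 7 lists passed, as in the 4 comparisons of the opposite ventricle.

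Between the ventricles the 7 lists held genes on both sides. In Sham-H the RV had lower Ccnd1, cyclin D1 (log2 fold change -0.77 ± 0.20 SE, adjusted p = 0.00468), and separase Espl1 (log2 fold change -1.48 ± 0.29 SE, adjusted p = 0.000299) and higher Smc4, a condensin subunit (log2 fold change 0.91 ± 0.22 SE, adjusted p = 0.00338), with 1 higher and 3 lower of 8 G1 cyclins and kinases and 2 higher and 4 lower of 16 other mitotic genes, where 9.62% of all genes were higher and 11.4% lower. In AOB-H Ccnd1 (log2 fold change -0.86 ± 0.22 SE, adjusted p = 0.00444), Orc1 (log2 fold change -1.59 ± 0.44 SE, adjusted p = 0.0121) and Espl1 (log2 fold change -1.08 ± 0.31 SE, adjusted p = 0.017) were the 3 with the smallest p, all lower in the RV. Ccne2 and Orc4 were among the 3 genes with the smallest p in both PAB-F and AOB-F. Cyclin E2, Ccne2, was higher in the RV by 1.64 ± 0.23 (SE, adjusted p = 5.11e-08) on the log2 scale in PAB-F and by 1.64 ± 0.21 (SE, adjusted p = 8.9e-10) in AOB-F. The origin recognition subunit Orc4 was higher in the RV by 1.40 ± 0.21 (SE, adjusted p = 1.63e-07) in PAB-F and by 1.55 ± 0.19 (SE, adjusted p = 4.71e-10) in AOB-F. In Sham-F 9 of 17 genes of origin licensing and firing were higher in the RV and 2 lower, led by Orc2 (log2 fold change 1.48 ± 0.14 SE, adjusted p = 7.35e-15), and 1 of 8 G1 cyclins and kinases was higher, Ccne2 (log2 fold change 1.99 ± 0.19 SE, adjusted p = 9.64e-15), and 5 lower. With age in the LV, 8 of the 17 licensing genes fell and 2 rose, led by Orc2 (log2 fold change -0.87 ± 0.15 SE, adjusted p = 2.13e-06), and of the RB and E2F list 6 of 10 fell, led by Rb1 (log2 fold change -0.77 ± 0.14 SE, adjusted p = 6.93e-06), while Pold1 rose (log2 fold change 0.68 ± 0.13 SE, adjusted p = 9.9e-06). These shares stand beside the 74.3% and 57.4% of all genes that passed in the last 2 comparisons.

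The members were also counted by limits on size, namely a log2 fold change beyond 1 in either direction with p up to 0.01 before adjustment and, in the first group named, more than 50 normalized counts on average. Against sham these limits follow the study, which set the mean limit in the diseased group. The mean limit removes most mitotic members. Against sham, 1, 0, 0, 3, 1, 0, 0 and 1 members passed in RV PAB-H, LV PAB-H, RV AOB-H, LV AOB-H, RV PAB-F, LV PAB-F, RV AOB-F and LV AOB-F, where 1.82%, 0.0335%, 0.0167%, 0.209%, 1.9%, 0.0167%, 0.259% and 1.21% of all genes did. The 3 in LV AOB-H were Cenpf, Mki67 and Top2a, each with its highest value in LV AOB-H replicate 6, and Mcm6 was the 1 member in both RV PAB-H and RV PAB-F. For RV against LV the counts were 0, 0, 0, 5, 4 and 5 in the H animals (Sham, PAB and AOB) and then the F animals in the same order, beside 2.17%, 0.795%, 2.53%, 24.1%, 15.4% and 18.2% of all genes. Here the mean limit was set on the RV alone, so that it bears harder on genes that are lower in the RV. For age they were 0 in the RV, 2 in the LV and 1 for the difference, beside 0.0837%, 7.45% and 8.32%. For the difference in response they were 1 for PAB-H, 0 for PAB-F and 0 for AOB-F, beside 1.1%, 0.945% and 0.0418%.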

How the data were processed

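RNA of isolated rat cardiomyocytes, depleted of ribosomal RNA, was measured in 82 libraries. The authors trimmed reads with Trim Galore, mapped them with STAR to Rnor6.0 and deposited the raw counts that featureCounts gave for each gene. The authors also deposited normalized counts, a signal made by dividing the counts by 1 DESeq2 size factor per library (version 1.28.1 per the labels), which were not used in tests, and FPKM values, which were used for levels between genes only.

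Tests used the raw counts as deposited. Genes were kept with edgeR's filterByExpr over the 12 groups, which left 11954 of 17337, TMM-normalized, and fitted with a mean per group in edgeR 4.0.16 (R 4.3.3), using the quasi-likelihood F test and Benjamini-Hochberg adjustment over all genes tested, with calls at an adjusted p under 0.05. Every adjusted p printed comes from this fit unless another tool or setting is named. Normalized counts printed are counts scaled to the mean TMM effective library size (13279120), and CPM sums over markers or members use the same sizes. The common biological coefficient of variation was 0.244. Alternatives were DESeq2 1.42.0, DESeq2 size factors in edgeR, no filter, sex as a covariate, a fit to the 2 groups alone, blocks, limits on size and leaving out each library.

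The libraries of the RV and LV of a condition were paired by animal, per the labels. As a check, the deviations from the group means of paired libraries correlated with a median r of 0.217 to 0.374 over the 6 conditions, against -0.0849 to 0.0363 for other animals. In the banding and age comparisons a shared replicate number is only a number.

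The members and all lists were chosen with earlier results of these data known. By rule, up to 4 called members with the smallest p were described per comparison, or up to 2 where none was called, with up to 3 called genes of the other lists and 6 members in all groups. Members with fewer reads than the filter needs were taken as too low to judge. On data simulated for PAB-F against Sham-F in the RV (11954 genes), 166 of 200 genes changed by 1 on the log2 scale were recovered (11 of 34 with a mean count under 50). In that run 10 unchanged genes were also called, and with no gene changed 0 were called. For RV against LV in Sham-F 169 of 200 were recovered. The simulated libraries were independent, at 1 level per gene in all groups apart from the change, without paired animals or outlying libraries. The simulation therefore does not cover calls that depend on single libraries. Promoters came from RefSeq (GRCr8), matched by symbol.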

Additional observations from a re-analysis of the deposited data

Results flagged for a closer look

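Within each group, the summed levels of 3 member classes and the 6 members followed in all groups were searched for a library far from the others, by Dixon's criterion at the 95% level, over 108 groups of values. It was met 16 times. Chance meets it in about 1 in 20 groups only for independent, normally distributed values. Here the values were not transformed, and Mki67, Top2a, Ccnb1 and Cdk1 are also part of the mitotic sum. The 16 are therefore not read as more than chance gives. In LV AOB-H replicate 6 the 24 mitotic members summed to 157 CPM (nearest other library 77.99), Mki67 had 279 and Top2a 221 normalized counts, and in the RV library of the same animal Mki67 had 102 and Cdk1 19.3. In LV AOB-F replicate 1 the mitotic sum was 84.1 CPM and Mki67 181. In LV Sham-F replicate 3 the mitotic sum was 52.2 CPM, Mki67 101 and Top2a 56.7, and in RV AOB-F replicate 7 the mitotic sum was 49.5 CPM and Mki67 70.5. Ccnb1 had 33.9 in RV PAB-F replicate 1, and Cdk1 had 55.97 in LV Sham-H replicate 4. Low values were the mitotic sum of LV PAB-F replicate 1 (24.8 CPM) and the sum of Pcna and the nucleotide members in LV PAB-H replicate 2 (43.7 CPM).

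The change with age differed between LV and RV of the shams for 9 members by the test of the difference itself (edgeR, adjusted p under 0.05), beside 41.6% of all genes. The difference, LV minus RV on the log2 scale, was -1.40 for Bub1, -1.37 for Ect2, -1.26 for Rrm1, -1.23 for Nusap1, -0.86 for Mcm4, -0.84 for Tyms, -0.61 for Pcna, 0.44 for Mcm2 and 1.66 for Cdca8. What these differences rest on was not tested.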

How the results depend on the processing

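Among 114 results for called members and 20 for members not called, none changed direction under the alternatives that applied to it, and the genes of the further lists and the markers were not followed under them. Of the 114, 113 were also called by DESeq2, 112 with DESeq2 size factors, 105 with no filter and 113 with sex as a covariate. A fit to the 2 groups alone called 79 of the 93 to which it applied, and the limits on size called 20 of 114. DESeq2 called 1 member in LV AOB-H (edgeR 0). With no filter 1 member was called in RV PAB-H. With the fit to 2 groups there were 6 in RV PAB-H, 0 in LV AOB-F and 2 for RV against LV in AOB-H. By the limits on size there were 1 in RV PAB-H, 3 in LV AOB-H and 1 each in RV PAB-F and LV AOB-F, for RV against LV 0 in Sham-H, 0 in AOB-H, 5 in Sham-F, 4 in PAB-F and 5 in AOB-F, 2 for age in the LV, 1 for the difference in age effect and 1 for the PAB-H response. The causes were not tested, beyond the mean limit of 50, which most members are under. For RV against LV this limit was set on the RV alone. With the animal as a block 84 of 85 calls held, and the PAB-F response difference had 1 call in place of 0. With the replicate number as a block, which does not pair these animals, 17 of 27 calls held, with 0 in LV AOB-F. Leaving out each library in turn gave 0 to 5 members in RV PAB-H, 3 to 9 in RV PAB-F, 0 to 8 in LV AOB-F, 4 to 10, 1 to 14, 20 to 21, 13 to 17 and 18 to 21 for RV against LV in the order Sham-H, AOB-H and then Sham-F, PAB-F, AOB-F, 13 to 20 for age in the LV and 7 to 11 for the difference in age effect. Each library that moved a count by over 1.5 times when left out is named with its result. Apart from the limits on size, the share of all genes called is given for the main fit only. The counts under the other settings therefore show how far calls hold, and are no result about the members against all genes. Depth limits the thin members: Birc5 was not tested, and the medians of Ccnb2 and Ube2c stay under 10 raw counts in all groups.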
